A study of Mus musculus with 4 samples.

Results

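The expression of 10 transcription factor genes was followed from the neural stem cell to the neuroblast of the postnatal mouse brain, the nuclear factor I genes Nfia, Nfib, Nfix and Nfic and the Sox genes Sox2, Sox9, Sox4, Sox11, Sox5 and Sox6. They were picked by symbol, as 10 of the 31053 genes in the count tables, and each symbol matched 1 row in all 4 tables. The cells came from the microdissected dorsal ventricular-subventricular zone (V-SVZ), the germinal layer along the lateral ventricle, of wild-type OF1 mice without any treatment, at postnatal day (P) 2, 12 or 22. There were 4 droplet libraries (10x Chromium, version 3 chemistry), 1 at P2, 2 at P12 (replicates 1 and 2, from independent experiments) and 1 at P22. By the study's methods, mice were pooled by time point and viable cells were sorted before capture, so that a library stands for a pool and the spread between both P12 libraries is the main measure of replicate error.

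Nuclear factor I proteins bind DNA as dimers and are known in the developing forebrain for switching progenitors towards glia and for the timing of neuronal differentiation. Sox proteins share an HMG box and fall into groups with different roles. Sox2 (group B1) keeps neural progenitors undifferentiated, Sox9 (group E) is needed for stem cell formation and astrocyte fate, Sox4 and Sox11 (group C) switch on neuronal genes in newborn neurons, and Sox5 and Sox6 (group D), which lack a transactivation domain of their own, modulate the other groups in neurons and in the oligodendrocyte lineage.

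Cells were assigned to states by gates on other genes, none of which is among the 10 factors, after the marker thresholds of the study. The states were quiescent neural stem cells (qNSC; Slc1a3 and Prom1 without Egfr or Foxj1), activated neural stem cells (aNSC; Egfr among other genes, without Dlx1 or Dlx2), transit amplifying progenitors (TAP; Egfr, Dlx1 and Dlx2 among others), neuroblasts (NB; Dcx, Cd24a and Nrxn3), oligodendroglial cells (OL; Pdgfra and Sox10) and astrocytes (Astro; S100b and Aqp4). A gate for glutamatergic progenitors (GLUprog; Eomes without subpallial or oligodendroglial genes) was added. The gates held between 70 and 661 aNSCs, 92 and 727 qNSCs, 46 and 234 TAPs and 41 and 179 GLUprog per library. NBs numbered 1910 at P2, 518 and 16 at P12 and 1812 at P22, so that P12 replicate 2 fell under the minimum of 20 cells for a test, as it did for OLs with 2 cells. The NBs of P12 replicate 1 held a median of 22119 UMIs, near its TAPs (22938), against 11288.5 in NBs at P2 and 10775.5 at P22. The paper found the genes of the NB gate in TAPs too. In its P12 clusters the paper counted far fewer NBs than TAPs. The gates held 518 NBs and 234 TAPs in P12 replicate 1, and 16 NBs and 92 TAPs in replicate 2. In replicate 1 the NB gate was thus wider than the paper's NB cluster. Whether this gate took cells of the same stage at each age was not tested. Marker genes outside the gates separated the states. The summed level of 8 cycling genes was 3003 to 4823 CPM (counts of a gene in every 1000000 counts) in aNSCs and 357 to 759 CPM in qNSCs, and that of 8 astrocyte genes was 3218 to 7517 CPM in qNSCs and at most 275 CPM in NBs. Summed microglial and endothelial markers stayed at or below 135 and 18 CPM in the stem, progenitor and neuroblast states. P2 and P22 qNSCs held 345 and 451 CPM of neuroblast markers, against 38 and 31 CPM in P12 qNSCs.

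All levels below are CPM, the unique molecular identifiers (UMIs) of a gene scaled to 1000000 UMIs summed over the cells of a state in a library. A median aNSC or TAP carried more UMIs than a median qNSC, 17490 to 26323 in aNSCs and 8418 to 16746 in qNSCs, so that a lower CPM need not be fewer molecules per cell. Fold changes are on the log2 scale with the standard error (SE). The word "called" means an adjusted p below 0.05 in edgeR's quasi-likelihood test over all genes. Library was a block except in the age slopes within a state.

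**Figure D1:**
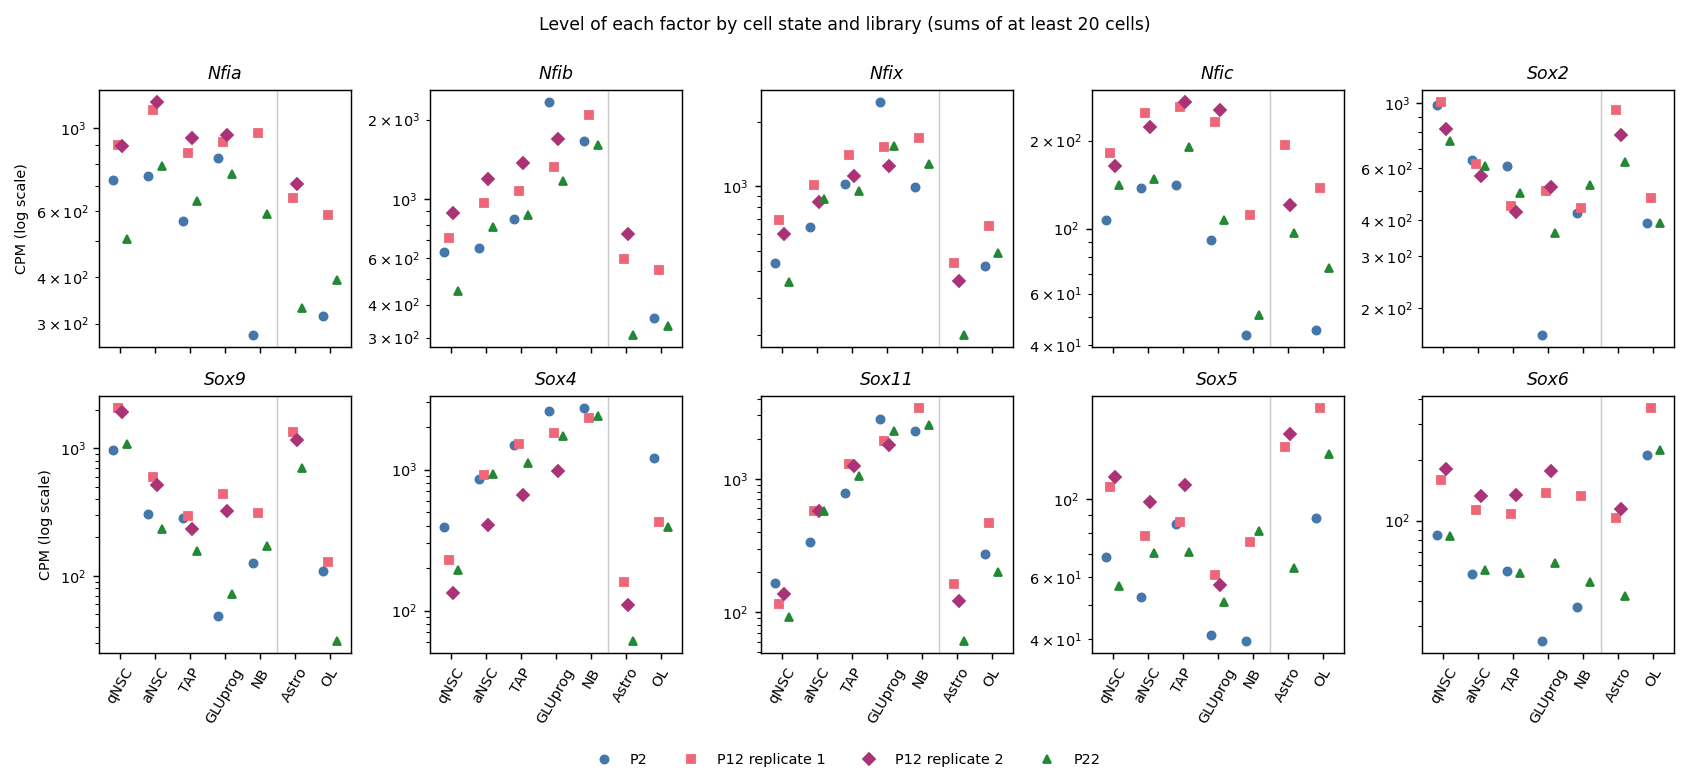
Level of each factor in CPM (log axis, own range per panel) by cell state for the 4 libraries, 1 point per library and state with at least 20 cells. Sox11 lay between 91.4 and 164 CPM in qNSCs and between 2288 and 3419 CPM in NBs, while Sox9 was highest in qNSCs in every library.

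Sox11 and Sox4 rose at each step from the quiescent cell to the neuroblast. Sox11 stood at 164 CPM at P2, 115 and 136 at P12 and 91.4 at P22 in qNSCs. In aNSCs it stood at 338 CPM at P2, 572 and 575 at P12 and 571 at P22. It reached 781 CPM at P2, 1291 and 1242 at P12 and 1048 at P22 in TAPs. The 4 libraries did not overlap between these states. In NBs Sox11 was 2288 CPM at P2, 3419 and 3572 at P12 and 2528 at P22, the highest of the neuronal states in each library but P2, where GLUprog held 2798 CPM. Sox11 was higher in aNSCs than in qNSCs at P12 (log2 fold change 2.16 ± 0.11 (SE), adjusted p = 7.8e-12), higher in TAPs than in aNSCs (1.26 ± 0.10, adjusted p = 3.9e-08) and higher in NBs than in TAPs over the libraries of the 3 ages (1.42 ± 0.26, adjusted p = 0.000244). From qNSC to NB the difference was log2 fold change 4.48 ± 0.29 (SE), adjusted p = 7.67e-11. Per cell this was 30.6 at P2, 75.8 and 90.8 at P12 and 32.1 at P22 UMIs in NBs, against 2.7 at P2, 1.11 and 1.55 at P12 and 0.772 at P22 UMIs in qNSCs.

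Sox4, the other group C gene, followed the same order within each library. Its levels were 855 CPM at P2, 915 and 403 at P12 and 929.6 at P22 in aNSCs, against 395 CPM at P2, 228 and 132 at P12 and 193 at P22 in qNSCs. NBs held 2758 CPM at P2, 2333 and 1529 at P12 and 2406 at P22 and TAPs 1488 CPM at P2, 1525 and 662 at P12 and 1108 at P22. P12 replicate 2 was the lowest library in aNSCs, TAPs and NBs, and the ranges of aNSCs and TAPs over the 4 libraries overlapped, while those of qNSCs and aNSCs, and of TAPs and NBs, did not. Within libraries Sox4 was higher in aNSCs than in qNSCs (log2 fold change 1.77 ± 0.12 (SE), adjusted p = 1.81e-10), in TAPs than in aNSCs (0.85 ± 0.11, adjusted p = 8.75e-06), in NBs than in TAPs (0.97 ± 0.26, adjusted p = 0.00499) and in NBs than in qNSCs (3.33 ± 0.27, adjusted p = 1.56e-09).

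Both genes consist of a single exon in GENCODE M21 (GRCm38), Sox11 at chr12:27334264-27342574 and Sox4 at chr13:28948919-28953713, both on the minus strand. As a description, the 250 bases before their RefSeq start sites are shown (GRCm38.p6, chr13:28953700-28953949 for Sox4 and chr12:27342719-27342968 for Sox11, minus strand). Matches to TTGGC on either strand, the core of a nuclear factor I site, are in capitals.
Sox4: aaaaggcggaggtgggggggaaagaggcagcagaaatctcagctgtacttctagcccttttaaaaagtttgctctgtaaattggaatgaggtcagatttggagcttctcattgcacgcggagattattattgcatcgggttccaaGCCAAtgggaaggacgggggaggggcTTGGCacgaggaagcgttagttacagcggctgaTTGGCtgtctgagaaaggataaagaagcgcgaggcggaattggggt
Sox11: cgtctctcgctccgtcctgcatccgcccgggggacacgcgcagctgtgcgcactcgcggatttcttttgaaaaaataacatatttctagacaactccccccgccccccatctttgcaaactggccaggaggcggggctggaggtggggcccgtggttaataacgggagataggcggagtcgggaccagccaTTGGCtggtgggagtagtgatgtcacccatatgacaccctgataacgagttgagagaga
The Sox4 window held TTGGC 3 times, 2 of which overlapped a CCAAT box on the other strand, and the Sox11 window held 1, overlapping a CCAAT box. Of 32851 promoter windows of this length, 41.5% held at least 1 TTGGC and 2.68% at least 3, and 33.8% held CCAAT. The full palindrome of nuclear factor I, TTGGC and its reverse complement with 5 bases between, was in none of the 16 windows of the 8 factors with an entry, and in 0.0365% of all windows. Such matches are letters and no measure of binding. Reads of Sox4 lie opposite a long noncoding gene, Gm26735, which collected 29016 UMIs in the gated cells, and the count tables keep both apart only as far as the counting used strand.

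Sox11 was also detected in part of the quiescent cells. With every cell thinned to 5000 UMIs, it had a UMI in 41% of qNSCs at P2, 35.5% and 43.3% at P12 and 25.8% at P22, against 99.1% to 100% of NBs. In microglia, which should lack the gene, the thinned share was 11.4% at P22 (70 cells, median 9342 UMIs before thinning, against 8418 UMIs in P22 qNSCs; 95% Clopper-Pearson interval 5.07% to 21.3%) and 0% and 10% in the 8 and 10 microglia of P12. The interval of the P22 qNSCs, 17.1% to 36.2%, overlapped that of the P22 microglia, while the summed levels were 91.4 CPM (95% Poisson interval 71.4 to 115) in P22 qNSCs and 25.8 CPM (15.3 to 40.8) in P22 microglia. Intervals cover counting error only. Unthinned, the share in qNSCs was 66.3% at P2, 53.4% and 58.5% at P12 and 32.6% at P22.

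Sox9 ran the other way. Its levels were 304 CPM at P2, 599 and 511 at P12 and 231 at P22 in aNSCs, against 967 CPM at P2, 2086 and 1925 at P12 and 1084 at P22 in qNSCs. TAPs held 284 CPM at P2, 293 and 232 at P12 and 158 at P22. Every qNSC library lay above every aNSC library, and TAPs were below aNSCs in each library. At P12 Sox9 was lower in aNSCs than in qNSCs (log2 fold change -1.90 ± 0.093 (SE), adjusted p = 5.34e-12) and lower in TAPs than in aNSCs (-0.97 ± 0.094, adjusted p = 3.59e-07). The step to TAPs was not called once P2 and P22 were added as blocks (-0.55, adjusted p = 0.298). The fall held per cell, with 7.87 at P2, 11.3 and 13.9 at P12 and 4.72 at P22 UMIs in an aNSC, against 15.9 at P2, 20.1 and 21.8 at P12 and 9.15 at P22 UMIs in a qNSC. From aNSCs to TAPs the UMIs per cell were lower in 3 of 4 libraries, P2 being the exception. Between NBs and TAPs no further difference was called (-0.11 ± 0.38, adjusted p = 0.845), and in NBs Sox9 lay at 127 CPM at P2, 312 and 268 at P12 and 173 at P22. After thinning, 29.1% of NBs at P2, 67.1% and 43.8% at P12 and 44.7% at P22 had a Sox9 UMI. None of the 70 P22 microglia did, which allows a share of up to 4.29% (3 counts of 70), while 25% and 30% of the 8 and 10 P12 microglia did. Median UMIs per P22 cell were 10775.5 in NBs and 9342 in microglia.

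Sox2 was lower in the activated state relative to all RNA, yet not per cell. It was 639 CPM at P2, 619 and 567 at P12 and 609.7 at P22 in aNSCs, against 989.9 CPM at P2, 1012 and 817 at P12 and 745 at P22 in qNSCs, lower in each of the 4 libraries. The difference was called at P12 (log2 fold change -0.67 ± 0.11 (SE), adjusted p = 2.13e-05), as was a smaller one between TAPs and aNSCs (-0.33 ± 0.11, adjusted p = 0.0227), which was lost with P2 and P22 as blocks (adjusted p = 0.606) and was no fall per cell, UMIs per TAP being higher in 3 of 4 libraries. In UMIs per cell the order turned round, with 16.6 at P2, 11.7 and 15.4 at P12 and 12.4 at P22 in aNSCs, against 16.3 at P2, 9.77 and 9.27 at P12 and 6.29 at P22 in qNSCs. Sox2 thus made up a smaller part of the UMIs of an activated cell, which held more UMIs in all. NBs kept 424 CPM at P2, 439.8 and 347 at P12 and 525 at P22, and no difference from TAPs was called (-0.02 ± 0.25, adjusted p = 0.964), while NBs were below qNSCs (-0.89 ± 0.25, adjusted p = 0.00372; adjusted p = 0.0534 without P12 replicate 1). Per cell Sox2 was lower in NBs than in qNSCs in 2 of 3 libraries, as were Nfic and Sox6. Sox2 is a single-exon gene (chr3:34650405-34652461, plus strand) inside the transcript of Sox2ot on the same strand, a gene that is not a row of the tables, so that reads of the host transcript over this exon cannot be told from Sox2.

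**Figure D2:**
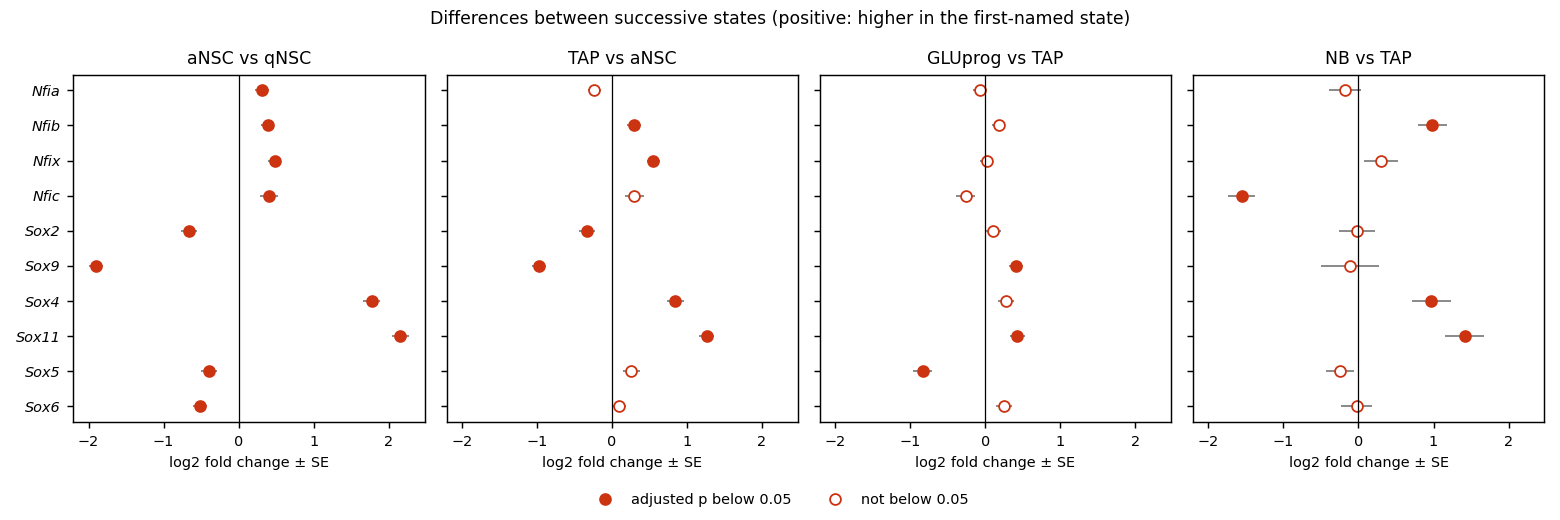
Log2 fold change ± SE of each factor between aNSC and qNSC, TAP and aNSC, GLUprog and TAP, and NB and TAP, positive where the first-named state was higher. Filled points have an adjusted p below 0.05. Sox11 lay right of 0 in all 4 panels, Sox9 left of 0 in the aNSC and TAP panels, and the intervals widen in the NB panel, which pools the 3 ages.

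The nuclear factor I genes did not move as a block. All 4 were higher in aNSCs than in qNSCs at P12. For Nfix the levels were 1009 and 848 CPM in the aNSCs of both P12 libraries, against 695 and 599 CPM in qNSCs (log2 fold change 0.48 ± 0.086 (SE), adjusted p = 8.65e-05). Nfib differed by 0.39 ± 0.088, adjusted p = 0.000836, Nfic by 0.40 ± 0.12, adjusted p = 0.00789 and Nfia by 0.31 ± 0.091, adjusted p = 0.00609. Each of these was under 1.5-fold. Nfix and Nfib rose again in TAPs (0.55 ± 0.086, adjusted p = 7e-05 for Nfix and 0.29 ± 0.087, adjusted p = 0.0136 for Nfib), whereas Nfia (-0.23 ± 0.091, adjusted p = 0.0538) and Nfic (0.30 ± 0.12, adjusted p = 0.061) were not called, although 5 other settings called Nfia lower and 6 called Nfic higher. With P2 and P22 added as blocks, only the call of Nfix in aNSCs was kept. The values in aNSCs against qNSCs were then 0.30, adjusted p = 0.178 for Nfib, 0.20, adjusted p = 0.312 for Nfic and 0.19, adjusted p = 0.411 for Nfia, and those in TAPs against aNSCs, about as large as before, 0.52, adjusted p = 0.0918 for Nfix and 0.32, adjusted p = 0.232 for Nfib.

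In neuroblasts the family parted further. Nfib, which is required for forebrain midline glia and axon tracts, was 1662 CPM at P2, 2074 and 2596 at P12 and 1599 at P22 in NBs, against 842 CPM at P2, 1075 and 1368 at P12 and 875 at P22 in TAPs. NBs exceeded TAPs in every library, and the difference was called (log2 fold change 0.98 ± 0.20 (SE), adjusted p = 0.000533). Nfic, the family member best known from tooth root formation, was 43.2 CPM at P2, 112 and 95.9 at P12 and 50.6 at P22 in NBs, against 141 CPM at P2, 261 and 272 at P12 and 190.3 at P22 in TAPs. No NB library reached a TAP library, and this was the only fall called among the 10 factors at this step (-1.55 ± 0.18, adjusted p = 1.75e-06). Nfic was also below its qNSC level in NBs (-1.05 ± 0.18, adjusted p = 2.94e-05), while Nfib (1.60 ± 0.20, adjusted p = 5.32e-07) and Nfix (1.39 ± 0.22, adjusted p = 1.5e-05) were above it. For Nfix, known in the V-SVZ for its part in stem cell quiescence and neuroblast maturation, no difference between NBs and TAPs was called (0.30 ± 0.22, adjusted p = 0.304). In the P12 libraries alone, with 16 NBs in replicate 2, Nfix was called higher in NBs (0.43, adjusted p = 0.00138). Within the single libraries of P2 and P22 its log2 ratio was -0.05 and 0.42. Nfia, an activator of astrocyte genes, was 279 CPM at P2, 968 and 1170.3 at P12 and 589 at P22 in NBs, against 562 CPM at P2, 858 and 942 at P12 and 639.7 at P22 in TAPs. P2 NBs stood far below the other NBs, and the comparison gave no call (-0.18 ± 0.21, adjusted p = 0.53). Its direction depended on P2. Against qNSCs the difference was -0.23 ± 0.21, adjusted p = 0.348 with all libraries and 0.37, adjusted p = 0.0261, without P2, and in the P12 libraries alone, with 16 NBs in replicate 2, it was 0.28 against TAPs, adjusted p = 0.0367. The antisense partner of Nfia, E130114P18Rik, held 21691 UMIs in the gated cells, with the same limit of strand as for Sox4.

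Counted over the 10 factors, 6 were higher and 4 lower in aNSCs than in qNSCs, where 64.6% of the 12872 genes tested outside the gates were called, 31.5% higher and 33.1% lower. In TAPs against aNSCs, 4 were higher and 2 lower, with 16.6% and 18.8% of all genes (35.5%). In NBs against TAPs, 3 were higher and 1 lower, with 19.8% and 19% of 12880 genes (38.7% in either direction), and in NBs against qNSCs 4 were higher and 4 lower, with 32.1% and 33.2% of all genes (65.3%). A call between these states was thus common among all genes. Among the 5 states of the P12 fit, ordered by mean level, all neighbours separated over both libraries for Sox9 and for no other factor. The neighbours that overlapped were GLUprog, TAP and qNSC for Nfia, and GLUprog and TAP for Nfix. For Nfib and Sox4 they were GLUprog, TAP and aNSC, and qNSC and Astro. For Nfic they were GLUprog and aNSC, and qNSC and Astro. Sox2 and Sox11 overlapped between qNSC and Astro, Sox5 among qNSC, TAP and aNSC, and Sox6 between qNSC and GLUprog and among aNSC, TAP and Astro. Per cell the picture at the last step was narrower. Of the factors higher in NBs than in TAPs on the CPM scale, Sox11 had more UMIs per NB in 3 of 3 libraries with 20 NBs, but Nfib and Sox4 in 1 of 3, as TAPs held more UMIs in all.

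The group D genes turned with lineage more than with stage. Sox6, which holds oligodendrocyte precursors in an immature state together with Sox5, was 211 CPM at P2, 364 and 278 at P12 and 223 at P22 in OLs, against 54.6 CPM at P2, 113 and 132 at P12 and 56.7 at P22 in aNSCs. The P12 value of replicate 2 rests on 2 OLs. OLs exceeded aNSCs in every library, and the difference was called over the libraries with 20 OLs (log2 fold change 1.94 ± 0.21 (SE), adjusted p = 5.29e-07). Sox5 was 88.2 CPM at P2, 182 and 245 at P12 and 134 at P22 in OLs, against 52.9 CPM at P2, 78.6 and 97.9 at P12 and 70.2 at P22 in aNSCs (0.96 ± 0.19, adjusted p = 0.000445). The other 6 factors called were all lower in OLs. They were Sox9 (-2.04 ± 0.41, adjusted p = 0.000625), Nfic (-1.12 ± 0.18, adjusted p = 6.44e-05), Nfia (-1.06 ± 0.21, adjusted p = 0.0006), Nfib (adjusted p = 0.000627), Nfix (-0.71 ± 0.23, adjusted p = 0.0197) and Sox11 (-0.73 ± 0.27, adjusted p = 0.0398). The Nfix call was lost without P12 replicate 1 (-0.75, adjusted p = 0.087) or P22 (-0.74, adjusted p = 0.0681), with a fold change that stayed as large, and the Sox11 call without P12 replicate 2 (-0.70, adjusted p = 0.0928) or P22 (-0.48, adjusted p = 0.293). Sox4 gave no call (-0.50 ± 0.26, adjusted p = 0.148) with all libraries, but it did without P2 (-1.11, adjusted p = 0.000693), with raised gates (adjusted p = 0.026) and without the 5% of cells with most UMIs (adjusted p = 0.0264). Sox2 was called lower without P2 (-0.53, adjusted p = 0.0372) and with only OLs and aNSCs in the fit (adjusted p = 0.02). Of all genes, 19.2% were called higher and 14.7% lower (33.9% in either direction). Along the neuronal route both group D genes were lower at the first step, at -0.52 ± 0.094, adjusted p = 8.99e-05 for Sox6 and -0.40 ± 0.11, adjusted p = 0.00345 for Sox5 in aNSCs against qNSCs, although UMIs per cell of both were higher in aNSCs in 4 of 4 libraries. With P2 and P22 as blocks the Sox5 call was lost (adjusted p = 0.0808). In NBs Sox6 was below its qNSC level (-0.60 ± 0.21, adjusted p = 0.0172). This call was lost under 8 of 16 other settings, among them without P2 (adjusted p = 0.156) or P22 (adjusted p = 0.299). Sox5 was called below its TAP level in NBs only without P22 (-0.54, adjusted p = 0.0409). The levels of both group D genes were low, at most 181 CPM in qNSCs for Sox6 and 115 CPM for Sox5, where P12 replicate 2 was the highest library for both.

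Relative to all RNA, astrocytes held less of 6 of the factors than qNSCs did at P12. At P12, Nfix was 438 and 361 CPM in Astro, against 695 and 599 CPM in qNSCs (log2 fold change -0.73 ± 0.097 (SE), adjusted p = 2.04e-05). Sox9 was 1345 and 1164 CPM in Astro, against 2086 and 1925 CPM in qNSCs (-0.71 ± 0.094, adjusted p = 2.04e-05). Both genes had lower values in both Astro sums than in either qNSC sum. Sox6 (-0.69 ± 0.13, adjusted p = 0.000669), Nfia (-0.44 ± 0.098, adjusted p = 0.00305), Nfib (-0.30 ± 0.095, adjusted p = 0.0266) and Sox4 (-0.42 ± 0.15, adjusted p = 0.0486) were also lower, so that 6 of the 10 factors were called lower and none higher, where 13.8% of all genes were lower and 9.51% higher (23.3% in either direction). The calls of Sox4 and Nfib did not hold under 8 and 7 of 12 other settings, and with P2 and P22 as blocks only that of Sox6 was kept. Leaving out either P12 library, counted among these settings, gave values with no test. Sox2 gave no call (-0.12 ± 0.11, adjusted p = 0.49), nor did Sox5 (0.35 ± 0.14, adjusted p = 0.0863), which was however higher in Astro in 3 of 3 libraries and called under 4 of 12 other settings. Per cell Sox6, Nfix and Sox9 were lower in Astro in 3 of 3 libraries, Nfia and Sox4 in 2 and Nfib in 1, and Sox2 was higher in 3. Astro came to 49 and 72 cells at P12, and their summed astrocyte markers were 9281 and 11917 CPM, against 5977 and 7399 CPM in qNSCs.

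In glutamatergic progenitors several differences took another direction at P12 than at P2 or P22. At P12, Sox11 (0.43 ± 0.10, adjusted p = 0.00382) and Sox9 (0.41 ± 0.096, adjusted p = 0.00391) were higher in GLUprog than in TAPs and Sox5 was lower (-0.83 ± 0.13, adjusted p = 9.81e-05), with 14.1% of all genes called higher and 12.7% lower (26.8% in either direction). The Sox11 call was lost when cells passing 2 gates went to the later state (0.15, adjusted p = 0.296), that of Sox5 after thinning (-0.32, adjusted p = 0.304) and that of Sox9 with raised gates (0.26, adjusted p = 0.0586). The direction of Sox9 was that of P12 alone. Sox9 was 48.6 CPM at P2, 442 and 321 at P12 and 72.2 at P22 in GLUprog, against 284 CPM at P2, 293 and 232 at P12 and 158 at P22 in TAPs, above TAPs in both P12 libraries and below them at P2 and P22, while UMIs per cell were higher in GLUprog in 1 of 4 libraries. With P2 and P22 added as blocks its difference was -0.54, with an adjusted p of 0.282, while Nfib was then higher (0.54, adjusted p = 0.0324) and Nfic lower (-0.53, adjusted p = 0.0193) in GLUprog. Sox2 was 161 CPM at P2, 502 and 516 at P12 and 361 at P22 in GLUprog, against 612 CPM at P2, 446 and 425 at P12 and 493 at P22 in TAPs, with the P2 library the lowest. The P2 GLUprog also held the highest Nfib and Nfix, 2336 and 2492 CPM. Markers moved with this. Summed cycling genes in GLUprog were 1162 CPM at P2, 4301 and 7052 CPM at P12 and 2191 CPM at P22, glutamatergic neuron markers 2217, 1067, 1007 and 1525 CPM, and astrocyte markers 92.4, 948, 860.0 and 497 CPM in the same order of libraries. Their part in these differences was not tested.

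Age itself gave no call for any factor. The slope per 10 days of age was tested in qNSC, aNSC, TAP, GLUprog, NB and OL sums, and edgeR called 0 of the 10 factors in each, where all genes gave 0% in qNSCs, aNSCs, TAPs and GLUprog, 0.00747% in NBs (all lower with age) and 0.252% in OLs (0.216% higher and 0.0359% lower). At an unadjusted p below 0.05 there were 2 factors, both in OLs, Sox9 (-0.99 ± 0.43, adjusted p = 1) and Sox4 (-0.90 ± 0.40, adjusted p = 1), and DESeq2 called 0 factors. With 1 library each at P2 and P22 the slope has 1 or 2 residual degrees of freedom. Leaving out an age changed this. Without P22, 8 factors were called in GLUprog, led by Sox9 (2.79 per 10 days, adjusted p = 1.14e-08) and Sox6 (2.45, adjusted p = 8.2e-07), 3 in qNSCs and 3 in aNSCs (Sox4, Sox6 and Sox9 in both), of which Sox4 fell in qNSCs (-1.29, adjusted p = 3.52e-05). Without P2, the same 3 factors were called in aNSCs with opposite signs, and Sox9 (-2.28, adjusted p = 0.000224) and Sox6 (-1.22, adjusted p = 0.0425) ran the other way in GLUprog. Of all genes, 25.5% were called in GLUprog, 24.4% in qNSCs and 14.2% in aNSCs without P22, and 7.36% in aNSCs and 5.32% in GLUprog without P2. These slopes set a single library of P2 or P22 against both of P12. In the simulated test of the qNSC slope, 11.9% of genes changed by log2 1 per 10 days were recovered and 79.1% of those changed by log2 2, so that smaller trends were not detectable at this depth of replication.

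What the levels by age did show was a P12 that stood apart. Nfia in qNSCs was 727 CPM at P2, 899.5 and 896 at P12 and 505 at P22, and Sox6 was 85.3 CPM at P2, 159 and 181 at P12 and 83.7 at P22. Both P12 libraries lay above those of P2 and P22 for 7 of the 10 factors in qNSCs, 7 in aNSCs, 7 in TAPs and 6 in GLUprog, where 37.9%, 44.2%, 40.2% and 39% of all genes with a mean of at least 10 CPM did. Nfia, Nfic, Sox5 and Sox6 did so in all 4 states, as did 20.5% of all genes. The opposite, both P12 libraries below the other ages, was seen for 0, 0, 1 and 2 factors in these states, where 23.5%, 21.4%, 21.7% and 26.5% of all genes lay there. Age cannot be told apart here from the Cell Ranger version, which the file headers give as 5.0.1 at P2 and P22 but 3.1.0 at P12. Nor can it be told apart from when the data were produced, as the paper describes those of P2 and P22 as additional datasets. Sox4 and Sox11 did not share this order in qNSCs, where the P2 library was the highest for both, with Sox4 at 395 CPM and Sox11 at 164 CPM. Neuroblast markers, as given above, were higher in the qNSCs of P2 and P22 than in those of P12. The part of these markers was not tested.

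**Figure D3:**
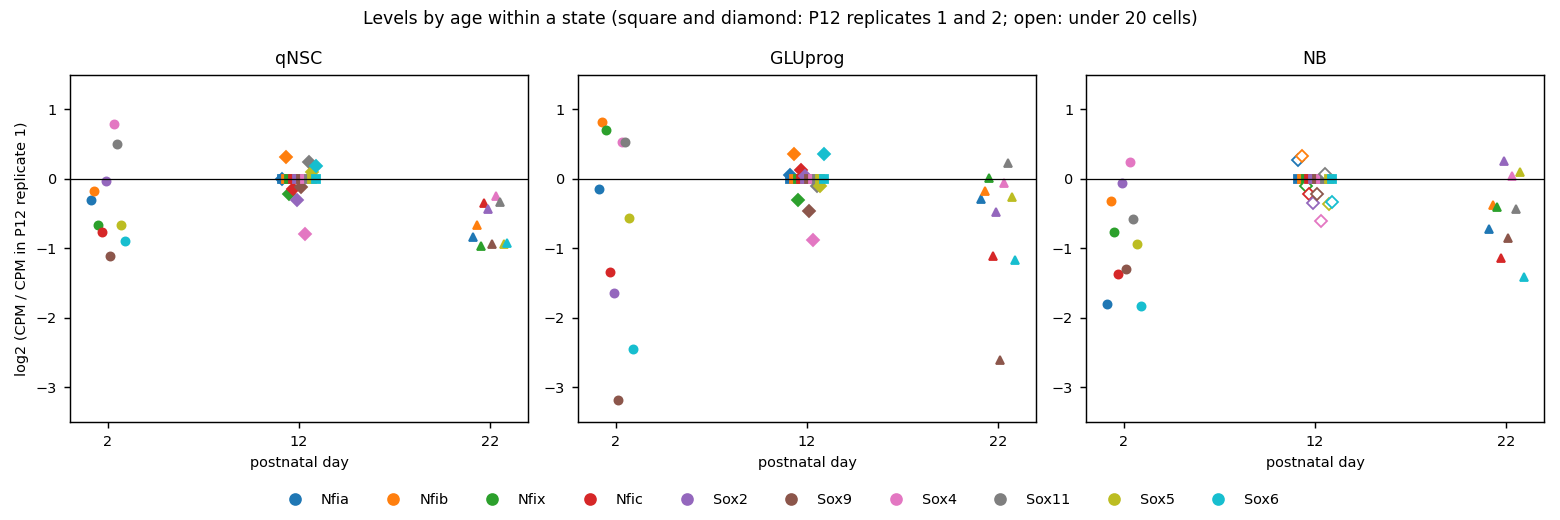
Level of each factor by postnatal day in qNSC, GLUprog and NB sums, as log2 of CPM over that of P12 replicate 1, with circles for P2, squares and diamonds for P12 replicates 1 and 2, and triangles for P22. Open diamonds mark the NB sum of 16 cells. In NBs the widest gaps below P12 replicate 1 were those of Nfia and Sox6 at P2, and in GLUprog those of Sox9 at P2 and P22.

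Activated stem cells in a pallial and a subpallial gate differed in 3 of the 10 factors. The gates read the regional genes a cell expressed, not its descent (Emx1, Neurod1, Neurod6, Neurog2 or Tbr1 against Gsx2, Dlx6, Dlx5, Sp9, Dlx2 or Gad1). In P12 aNSCs, Sox9 was 749 and 632 CPM in pallial cells, against 462 and 402 CPM in subpallial cells. The libraries did not overlap (log2 fold change 0.64 ± 0.093 (SE), adjusted p = 1.96e-08), and the aNSCs of P2 and P22 had the same direction, 477 CPM in 14 pallial cells against 159.9 CPM in 18 subpallial cells at P2, and 378 CPM in 10 against 194 CPM in 53 at P22. Sox11 was 509 and 514 CPM in pallial aNSCs at P12, against 694 and 628 CPM in subpallial ones (-0.41 ± 0.092, adjusted p = 0.000653), and Sox4 843 and 385 CPM against 1037 and 443 CPM (-0.29 ± 0.091, adjusted p = 0.0268). Sox4 and Sox11 were thus lower on the pallial side within each P12 library. Of all 11537 genes tested, 4.53% were higher and 3.12% lower in pallial aNSCs (7.65% in either direction). The quiescence markers moved the same way as Sox9, 4 of 6 tested being higher in pallial aNSCs, and 6 of 8 cycling markers were lower. Their part in the difference was not tested, and the Sox4 call did not hold under 7 of 13 other settings and that of Sox11 under 5. These settings include the omission of either P12 library, which gave values with no test. With P2 and P22 as blocks Sox9 was not called at a fold no smaller (0.76, adjusted p = 0.13).

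In qNSCs the split gave no call among the factors. Sox9 was 2162 and 2027 CPM in pallial qNSCs at P12, against 1584 and 1456 CPM in subpallial ones, of which replicate 2 held 16 cells. The edgeR test gave 0.49 ± 0.16, adjusted p = 0.402. Sox11 differed by -1.08 ± 0.30, adjusted p = 0.242, mainly through P2, with 82 CPM in 40 pallial and 405 CPM in 20 subpallial cells. The subpallial qNSCs of P2 also carried 946 CPM of neuroblast markers, against 75.7 CPM in pallial ones. Of all genes, 0.256% were called, 0.00777% higher and 0.249% lower in pallial qNSCs, and of the factors 4 had an unadjusted p below 0.05 (Sox2, Sox4, Sox9 and Sox11), with 0 called by DESeq2. Sox11 was called without a filter on low counts (-1.05, adjusted p = 5.33e-06) and with only the qNSCs in the fit (-1.18, adjusted p = 0.0394).

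**Figure D4:**
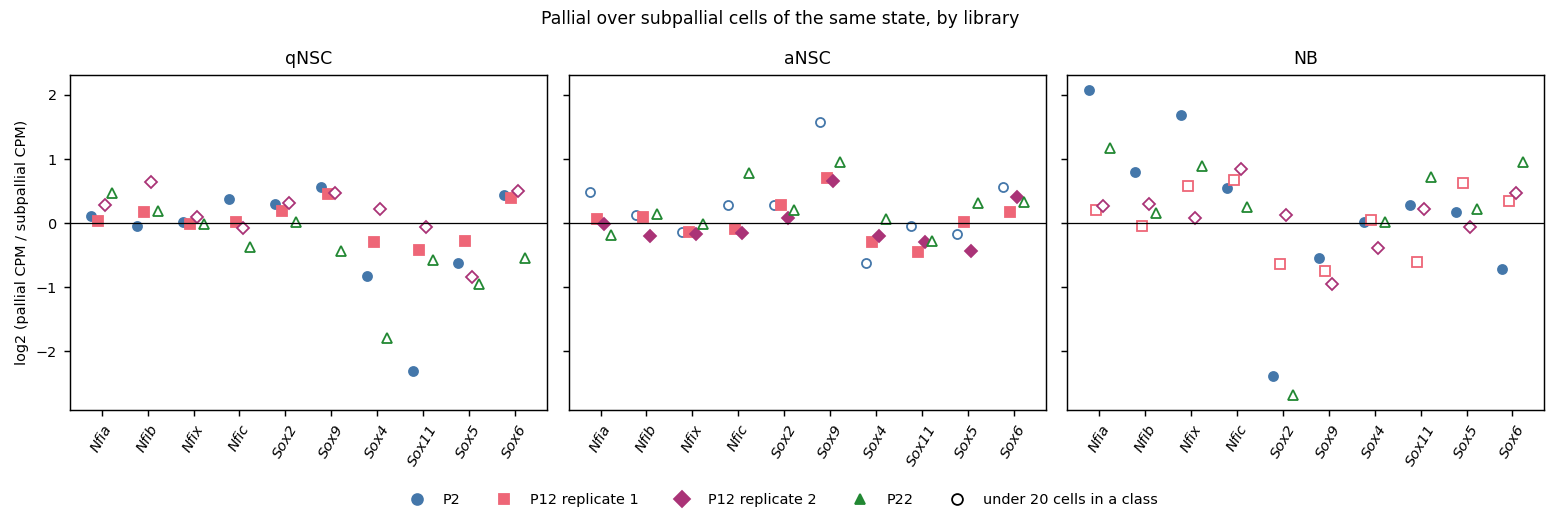
Log2 ratio of pallial over subpallial CPM for each factor in qNSCs, aNSCs and NBs, 1 point per library; open points have under 20 cells in a class, and a level of 0 in a class is not drawn. Sox9 lay above 0 in every aNSC library, and in P2 NBs, the only filled NB points, Nfia and Nfix lay above 0 and Sox2 below.

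Neuroblasts could be split only at P2, in a single library with 21 pallial and 1800 subpallial NBs, without a test. Nfia was 1088 CPM (95% Poisson interval 967 to 1221) in pallial NBs, against 257 CPM (251 to 264) in subpallial NBs. Nfix was 3068 CPM against 949 CPM, and Sox2 82 CPM against 428 CPM. These intervals cover counting error only. Subpallial cells made up 94.2% of NBs at P2, so that the low Nfia of P2 NBs was their level. They also made up 90.7% of NBs in P12 replicate 1 and 98.1% at P22, where Nfia of all NBs, given above, was higher. At P2, Sox11 (2762 CPM against 2275 CPM) and Sox4 (2796 CPM against 2771 CPM) were high on both sides. Pallial NBs of the other libraries came to 10, 3 and 6 cells, in which Nfia was 1109, 1293 and 1313 CPM.

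Sox9 and Sox11 were also counted within cells, as shares with a UMI of both. In cells thinned to 5000 UMIs, both had a UMI in 55.1% of aNSCs at P2, 70.1% and 63.4% at P12 and 43.3% at P22. In qNSCs the share was 38%, 35.4%, 43% and 23.6% in the same order, and in NBs 28.9%, 67.1%, 43.8% and 44.7%. Since nearly every qNSC had Sox9 and nearly every NB had Sox11, these shares follow the rarer gene of each state, and since free RNA and doublets were not removed from them, they are no measure of expression of both in a cell.

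Genes known to work with these factors, from lists made with earlier results in view, moved with the states as well. NBs were gated on neuronal genes and qNSCs on Slc1a3 and Prom1, so that the gates themselves set neuronal and glial genes apart. The counts from these lists describe the states and are no test of what the factors do. Of 11 listed targets of group C factors in neuronal differentiation, 10 were higher and none lower in NBs than in qNSCs (32.1% and 33.2% of all genes), with a median log2 fold change of 3.61 against 0.02 over all genes tested. Stmn2 (a microtubule regulator of growth cones) was the farthest at 5.71, followed by Tubb3 (neuronal tubulin) at 5.39 and Prox1 at 4.78, and Tead2, at 0.10, was not called. The targets did not all rise at the same step. In aNSCs against qNSCs 7 were higher and 2 lower (31.5% and 33.1% of all genes), with Stmn1 at 3.39 and Prox1 at 3.35 but Map1b at -1.25, and Tubb3, at 0.09, not called. In TAPs against aNSCs 9 were higher and none lower (16.6% and 18.8% of all genes), Tubb3 by 4.52.

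Of 12 listed glial targets of nuclear factor I and Sox9, 11 were tested in NBs against qNSCs, where 10 were lower and 1 higher (33.2% and 32.1% of all genes), with a median of -4.42 against 0.02 over all genes tested. Gfap, the glial filament gene, was at -5.79 and Aldh1l1 at -5.73, whereas Ezh2, a histone methyltransferase of dividing progenitors, was higher at 2.61. In Astro against qNSCs 6 of 12 were higher and 2 lower (9.51% and 13.8% of all genes), the highest being Ntsr2 at 2.44. Nfia, Nfib, Nfix and Sox9 were lower in the same comparison. Of 16 genes that share progenitor functions with Sox2, 11 were lower and 1 higher in aNSCs than in qNSCs (33.1% and 31.5% of all genes), with a median of -0.59 against -0.03 over all genes tested. The Notch effector Hes1 was at -2.78 and Id4, an inhibitor of bHLH factors, at -2.49, while Nes (nestin) was higher at 0.87. In NBs against qNSCs 10 of the 16 were lower and 1 higher (33.2% and 32.1% of all genes), from -5.82 for Hes1 to 1.83 for Pou3f4.

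Of 13 other Sox genes, 6 were tested. In NBs against qNSCs, Sox12, the remaining member of group C, was the only 1 of them called higher and 4 were lower (32.1% and 33.2% of all genes), Sox12 at 1.27. Sox3, of group B1 like Sox2, was at -4.07, and Sox21, Sox13 and Sox8 were also lower. Sox1, the other group B1 gene, at 0.16, was not called. In OLs against aNSCs, 3 of the 6 were higher and 2 lower (19.2% and 14.7% of all genes), Sox8 at 1.46, Sox3 at 1.55 and Sox12 at 0.69, with Sox1 at -2.66 and Sox13 at -1.05.

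Profiles over 27 sums of state and library were compared by Pearson correlation of log2(CPM + 1) with 9704 other genes of at least 10 CPM on average, as a description. Elavl2, Dbn1 and Gsk3a were most like Sox11, with r = 0.963 for Elavl2, and Jpt1 and Ube2e3 were among the 3 most like Sox4. For Nfix the nearest gene was Sox11 itself (r = 0.933), before Kif5c and Gsk3a. Nfia was nearest to Zbtb20 (r = 0.919), Gm29260 and Setbp1, and Sox2 to Fam171b (r = 0.948), E130114P18Rik and Syt11. Nfib lay nearest to Strbp, Epha4 and Sh3bgrl, Nfic to Fam120a, Usp25 and Dcaf8, Sox9 to Fstl1, Plxnb1 and Trps1, Sox5 to Bicd1, Gm49179 and Fmn2, and Sox6 to Dock3, Bicd1 and Adgrb3. Sums of a library share its depth and free RNA, and sums of a state share its cell type.

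Between both P12 libraries Sox4 differed in every state, which no other factor did to this extent. Replicate 1 was 1.46 to 2.30 times above replicate 2 in qNSCs, aNSCs, TAPs, GLUprog and Astro, with a median log2 ratio of 0.88 that ranked 23 of 7354 genes. The medians of the other factors lay between -0.32 (Nfib) and 0.28 (Nfix), and that of Sox11 was 0.06. In aNSCs Sox4 had 915 CPM in replicate 1 and 403 CPM in replicate 2, and in TAPs 1525 and 662 CPM. The differences between states were therefore read within libraries, and the tests of Sox4 kept library as a block. Gm26735, the gene opposite Sox4, stood at 259 and 234 CPM in the TAPs of replicates 1 and 2.

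**Figure D5:**
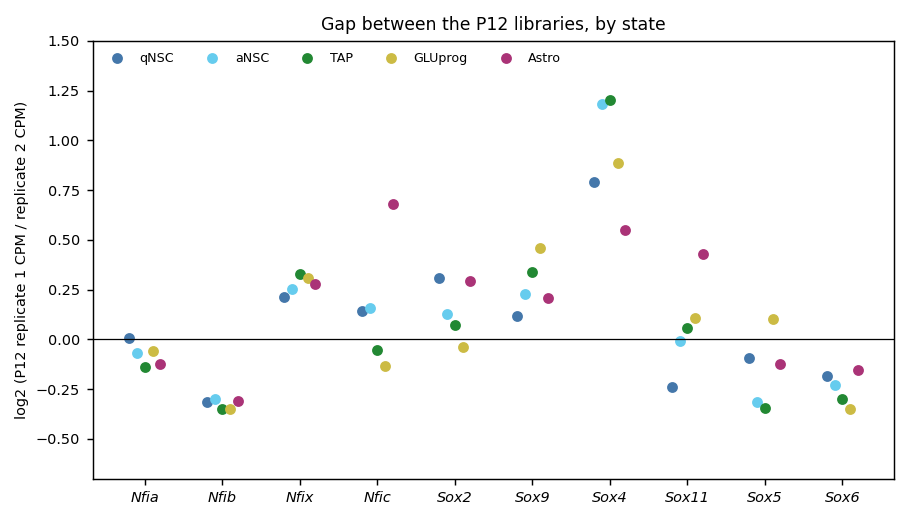
Log2 ratio of CPM in P12 replicate 1 over replicate 2 for each factor, 1 point per state with at least 20 cells in both libraries. Sox4 lay above 0.5 in all 5 states, Nfib and Sox6 below 0 and Nfix and Sox9 above 0 in all 5, and of the factors other than Sox4 only Nfic passed 0.5 in either direction, in Astro.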

How the data were processed

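The deposited files hold UMI counts, whole numbers of molecules per gene and cell barcode without normalization, which the authors made by aligning reads to mm10 (GRCm38) with Cell Ranger. The file headers give version 3.1.0 for P12 and 5.0.1 for P2 and P22, and the submitters' processing notes name Cell Ranger 3.1.0 and Seurat 3. Libraries held 4608 (P2), 8617 and 6400 (P12) and 4880 (P22) barcodes with 65323423 to 106402687 UMIs, and any 2 libraries shared 5 to 12 barcodes. The cell filter, 2000 to 8000 genes with no more than 10% of UMIs mitochondrial, left 4027, 7004, 4596 and 4230 cells with medians of 11853.5 to 14303 UMIs. Doublets were not called. Gates used ln(1 + 10000 × UMIs/total). Cells passing more than 1 gate were left out, and 39.7% to 73.3% of cells passed none.

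UMIs were summed per state and library (at least 20 cells) and tested with edgeR 4.0.16 in R 4.3.3 (TMM, filterByExpr, quasi-likelihood F test with a term for library, p adjusted by Benjamini-Hochberg across every gene in the fit, threshold 0.05). Libraries pair the states by origin, since the states of a library come from the same mice. Replicate deviations of different P12 states correlated at 0.396 to 0.745 over 7353 genes. The P12 fit held 10 sums with 4 residual degrees of freedom. NB, OL and subpallial qNSC sums were under 20 cells in P12 replicate 2, so that their comparisons came from fits with P2 and P22 as further blocks, 25 sums with 15 degrees of freedom for NBs and OLs and 15 sums with 6 for pallial against subpallial qNSCs. The fit of pallial against subpallial aNSCs held 6 sums with 2. The comparison of ependymal cells with qNSCs, that of pallial with subpallial NBs, and age trends in Astro and ependymal cells were not run, for want of cells. Nothing says which mice gave which cells, so that p-values rest on libraries and not on mice. With library as a block, they measure how differences between states varied among libraries, pooled over the states of the fit. edgeR also draws the spread of each gene towards a trend over all genes. Small p-values from fits with few residual degrees of freedom therefore rest on this shared spread and not on the replicates of the gene alone. The spread of levels between libraries is taken out, and without the block 26 of the 48 calls of factors were kept. Age slopes within a state had no block.

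The factors and gene lists were chosen with earlier results of these data known. Text names all 10 factors, the listed genes with the largest and smallest fold change and up to 4 others per list, and the 3 genes nearest in profile. A few genes of the gates and of these lists are not reported here. Alternatives were DESeq2 1.42.0, raw totals, no filter on low counts, a cell filter of 2500 to 7500 genes, raised gates, another rule for double-gated cells, thinning to 5000 UMIs, leaving out the 5% of cells with most UMIs, other sets of states and libraries, no block, and leaving out each library. Those with at least 10 cells were added after seeing the data. In simulated data with 200 changed genes, 82.1% of genes changed by log2 1 were recovered for aNSC against qNSC and 59.7% for NB against TAP. Apart from these changes, a simulated gene had the same share in every sum, with no library effect and no spread of its own. This held for the simulated qNSC slope too, so that recovery in the real data may differ. Intervals at 95% are Clopper-Pearson for shares and exact Poisson for CPM. Promoter windows came from RefSeq (GRCm38.p6), which matched 8 of the 10 factors.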

Additional observations from a re-analysis of the deposited data

Results flagged for a closer look

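The values below are log2 ratios of CPM within a library whose directions at different ages were opposite and beyond counting error. The samples compared are 1 library at P2 and at P22 and the mean of the P12 libraries with at least 20 cells, so that the difference between ages was not tested, except for NBs against qNSCs.

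Nfia was lower in NBs than in TAPs at P2 (-1.01) and P22 (-0.12) and higher at P12 (0.17). Against qNSCs, Nfia of NBs stood at -1.38 at P2, 0.11 at P12 and 0.22 at P22, and the change of this difference per 10 days was 0.82 ± 0.36 (SE) in edgeR, with an adjusted p of 0.942. Sox5 of NBs against qNSCs stood at -0.79 at P2, -0.52 at P12 and 0.52 at P22, with a change of 0.67 ± 0.30 per 10 days and an adjusted p of 0.958. Sox6 of NBs against TAPs was -0.59 at P2 and 0.29 at P12.

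In GLUprog against TAPs, Sox2 was -1.92 at P2, 0.23 at P12 and -0.45 at P22. Sox9 was -2.55 at P2, 0.53 at P12 and -1.13 at P22, and Sox6 was -1.15 at P2 and 0.37 at P12. In OLs against aNSCs, Sox4 was 0.50 at P2, -1.11 at P12 and -1.25 at P22.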

How the results depend on the processing

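Of 160 values of factors, 48 were called. DESeq2 kept 44 of these, raw library totals 46, no filter on low counts 46, the narrower cell filter 46, giving double-gated cells to the later state 45, thinning 42, leaving out the 5% of cells with most UMIs 43, fitting only the 2 states compared 45, and raised gates 36 of 42 that could be fitted. Leaving out P12 replicate 1 kept 46 and replicate 2 kept 47, but only 20 of the 48 were tested again there. The 28 from fits of the P12 libraries alone gave a value with no test, counted as kept where the direction held. Leaving out P2 kept 19 of 20 and P22 17 of 20. Adding P2 and P22 as blocks kept 11 of 28, and the fit with no replicate block 26 of 48. With at least 10 cells 20 of 20 were kept, and 11 of 12 in the P12 libraries alone. Raw totals shifted the median of all genes by -0.14 in TAP against aNSC and 0.14 in GLUprog against TAP.

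Directions turned for Sox9 in GLUprog against TAP (-0.54 with P2 and P22 as blocks), Nfia in NB against qNSC (0.37 without P2 and 0.35 in the P12 libraries with at least 10 cells, but -0.51 without P12 replicate 1) and Nfia in NB against TAP (0.28 in the P12 libraries with at least 10 cells). The age trends in GLUprog lay between -2.28 (without P2) and 2.79 (without P22) for Sox9 and between -1.22 and 2.45 for Sox6. Those in aNSCs were -1.07 without P2 and 0.63 without P22 for Sox9, 0.69 and -0.61 for Sox4, and -0.91 and 0.92 for Sox6. The age trends have few libraries, and the cause was not tested otherwise.

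Counts of genes called moved by over 1.5 times in the following cases. The main counts were 8311 for aNSC against qNSC, 4565 for TAP against aNSC, 3003 for Astro against qNSC, 3455 for GLUprog against TAP, 4986 for NB against TAP, 4368 for OL against aNSC, 883 and 33 for pallial against subpallial aNSC and qNSC, 1 and 28 for the age trends in NB and OL and 0 for the other trends. DESeq2 gave 150 and 96 for pallial against subpallial aNSC and qNSC, 38, 6, 1, 24 and 18 for the age trends in qNSC, aNSC, TAP, NB and OL, and 18 for NB minus qNSC by age. Without a filter on low counts there were 229 for pallial against subpallial qNSC, 90, 26, 21, 4 and 120 for the age trends in qNSC, aNSC, TAP, GLUprog and NB, and 157 for NB minus qNSC by age. The narrower cell filter gave 4 for pallial against subpallial qNSC and 1 and 2 for the age trends in qNSC and NB, and the later-state rule 45 for the trend in NB. Raised gates gave 2525 for TAP against aNSC, 155 for pallial against subpallial aNSC and 7 and 11 for the trends in TAP and NB. Thinning gave 2689 for TAP against aNSC, 1589 for Astro against qNSC, 1748 for GLUprog against TAP, 3084 for NB against TAP, 2341 for OL against aNSC, 150 and 4 for pallial against subpallial aNSC and qNSC, 22 and 14 for the trends in NB and OL, and 2 for NB minus qNSC by age. Leaving out the 5% of cells with most UMIs gave 285 for pallial against subpallial aNSC, and only the 2 states compared 80 for pallial against subpallial qNSC. P2 and P22 as blocks gave 1898 for TAP against aNSC, 1990 for Astro against qNSC and 9 for pallial against subpallial aNSC. With no replicate block, where the block pairs states of a library, the counts were 5521 for aNSC against qNSC, 1152 for TAP against aNSC, 1178 for Astro against qNSC, 1012 for GLUprog against TAP, 2674 for NB against TAP, 2556 for OL against aNSC, and 6 and 1 for pallial against subpallial aNSC and qNSC. The P12 libraries with at least 10 cells gave 104 for pallial against subpallial qNSC, and at least 10 cells in all libraries 0 for the trend in NB and 5 for NB minus qNSC by age. Leaving out each library gave 3159 to 4648 for NB against TAP, 2798 to 4708 for OL against aNSC, 2 to 50 for pallial against subpallial qNSC, and 9 to 3001, 3 to 1976, 2 to 139 and 0 to 3018 for the trends in qNSC, aNSC, TAP and GLUprog.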

Other observations

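Few genes differed by 1.5-fold or more in the same direction between both P12 libraries in all 5 states, 24 of 7354 genes (0.326%) higher in replicate 1 and 48 (0.653%) higher in replicate 2. Sox4, at 1.46 in Astro, was just under this limit. Among those higher in replicate 1, picked after their values were seen, were Cirbp (median log2 ratio 1.33), a cold-induced RNA binding protein, Socs3 (1.19), Txnip (1.13), Nfkbia (1.07), Jund (0.92) and Klf9 (0.86), several of which are known to respond quickly to stress or glucocorticoids. Whether the Sox4 gap has to do with these genes was not tested.

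The NB sum of P12 replicate 2, of 16 cells, carried 679 CPM of glutamatergic neuron markers, against 43 CPM in the NBs of P12 replicate 1, and 3 of its cells passed the pallial gate and 10 the subpallial gate.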
